A study of Mus musculus with 5 samples.

Results

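The Dectin-2 lectin gene cluster is a run of 9 C-type lectin receptor genes on mouse chromosome 6, from Clec4a1 to Clec4e (mm10, chr6:122921848-123289871, 368.0 kb). Windows of PU.1 signal inside the 9 gene spans or within 20 kb of them were taken, windows at most 100 bp apart were merged into sites, and each site was given to its nearest member. The rule found 26 sites, of 67230 in the whole table. The study mapped PU.1, an ETS-family factor and the product of Spi1, by chromatin immunoprecipitation and sequencing with the antibody T-20. It compared conventional dendritic cells (cDCs) with the plasmacytoid type (pDCs), with 2 biological replicates of each. Both cell types were grown in Flt3L culture from a strain that the labels spell C56BL/6, with no mutation or further treatment named, and the labels do not say how the cells were separated or whether animals were pooled. A single input library, without antibody, came from cDCs, and here both cell types were set against it. In bulk libraries, a smaller share of cells with PU.1 bound and less PU.1 bound per cell cannot be told apart.

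The receptors of this cluster are type II membrane proteins with 1 extracellular lectin domain, found mainly on myeloid cells and dendritic cells. Some of them carry an inhibitory tyrosine motif in the cytoplasmic tail, as Clec4a2 (DCIR) and Clec4a4 (DCIR2) do, and recruit phosphatases such as Ptpn6. Others, among them Clec4n (Dectin-2), Clec4e (Mincle) and Clec4b1 (DCAR), signal through the adaptor Fcer1g to the kinase Syk and on to Card9, which leads to NF-kappaB activation and cytokine release. The genes arose by duplication, and PU.1 is a general activator of myeloid genes that binds purine-rich DNA around the core GGAA.

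Promoter sequences show where the PU.1 signal lay relative to the annotated starts of these genes. RefSeq promoters (GRCm38.p6, the coordinates of mm10), each from 250 bases before to 50 after a start site, were matched for 7 of the 9 members, all but Clec4a4 and Clec4n, with 2 for Clec4a3. Of the 8 promoters 7 overlapped a PU.1 site, all but that of Clec4d. The sites that overlapped the promoters of Clec4a2, Clec4b2 and Clec4e were not called above input in either cell type. That of Clec4a2 (chr6:123122651-123122710) is not the strong Clec4a2 site described below. Its summit had 15 and 10 counts in cDCs, 2 and 10 in pDCs and 3 in the input. The letters GAGGAA, a PU.1-type sequence, were searched on both strands, where the other strand reads TTCCTC. At least 1 match stood in 5 of the 7 promoters that overlapped a site, at Clec4a1, Clec4a3, Clec4b1, Clec4b2 and Clec4e. It stood in 28.3% of all 32851 promoters and in 37.1% of the 6296 that overlap any listed window. The promoter of Clec4d held 3 matches and overlapped no site. The stretches below show the match nearest to the summit of the site with 25 bases on each side, 5′ to 3′ along the gene, with the match in capitals, because the same letters stand in the site of Clec4a3 called higher in pDCs and beside a site of Clec4b2 called higher in cDCs.
Clec4a1: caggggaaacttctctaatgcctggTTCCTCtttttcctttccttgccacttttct
Clec4a3: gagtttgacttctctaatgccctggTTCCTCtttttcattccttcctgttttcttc
Clec4b1: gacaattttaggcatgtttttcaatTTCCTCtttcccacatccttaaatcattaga
Clec4b2: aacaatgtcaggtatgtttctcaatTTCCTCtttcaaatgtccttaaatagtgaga
Clec4e: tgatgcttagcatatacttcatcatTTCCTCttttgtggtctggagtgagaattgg
In mm10 these stretches lie at chr6:122921606-122921661 (plus strand, Clec4a1), chr6:122952569-122952624 (plus strand, Clec4a3), chr6:123049869-123049924 (plus strand, Clec4b1), chr6:123172820-123172875 (plus strand, Clec4b2) and chr6:123289964-123290019 (minus strand, Clec4e). The stretches of Clec4a1 and Clec4a3 look alike, as do those of Clec4b1 and Clec4b2. By local alignment of the whole promoters, 45 of 51 aligned positions (88.2%) were identical between Clec4a1 and the promoter of the second start of Clec4a3. Between Clec4b1 and Clec4b2, 137 of 186 positions (73.7%) were identical. The longest exact run shared by promoters of different members was 17 bp, against reads of 49 bp. How reads that fit several places were counted is not given in the sources used here, so signal in other stretches that these paralogs share is less certain.

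The match centre lay -9 bp from the summit window of the site at Clec4a3 and at Clec4b1, -14 bp at Clec4e and 28 bp at Clec4a1, in chromosome coordinates and on a window grid of 50 bp. At Clec4b2 it lay -58 bp from the summit, just outside the listed windows of the site. None of the 7 genes held AGGAAGT in a promoter, a sequence found in 9.4% of all promoters and in 18.2% of those with a listed window. The ETS-IRF composite sequence EICE, which overlaps the core GGAA, occurred only at Clec4a1, and the AP-1 sequence TGANTCA only at Clec4a2. They occurred in 2.7% and 7.8% of all promoters. The core GGAA alone occurred in all 7 genes and in 96.0% of all promoters. These matches describe letters in the window and do not show which of them PU.1 touched. The promoter of Clec4b1 is printed whole (chr6:123049712-123050011, plus strand), because its site, stronger in both cDC libraries, covers the start site. Both GAGGAA matches are in capitals.
Clec4b1: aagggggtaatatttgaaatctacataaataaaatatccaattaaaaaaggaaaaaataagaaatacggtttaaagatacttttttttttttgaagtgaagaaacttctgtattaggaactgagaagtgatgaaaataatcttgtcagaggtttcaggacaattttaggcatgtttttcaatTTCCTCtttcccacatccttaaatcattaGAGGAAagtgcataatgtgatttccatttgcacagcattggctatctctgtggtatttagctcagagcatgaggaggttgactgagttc
The promoter of the second start of Clec4a3 (chr6:122952394-122952693, plus strand) is printed for contrast, because it holds the only site of the cluster called higher in pDCs.
Clec4a3: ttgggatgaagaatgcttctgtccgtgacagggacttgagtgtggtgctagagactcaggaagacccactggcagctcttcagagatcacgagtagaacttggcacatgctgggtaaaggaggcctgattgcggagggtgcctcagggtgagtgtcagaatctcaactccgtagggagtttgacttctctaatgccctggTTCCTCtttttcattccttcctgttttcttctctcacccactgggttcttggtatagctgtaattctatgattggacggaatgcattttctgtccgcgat

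The values are raw read counts per window of 10 bp. Totals over the windows ran from 6896416 to 11388554 for PU.1, while the input had 2776490. The number of reads sequenced is unknown. The 26 sites held 3314 and 3519 counts in cDC replicates 1 and 2, 1845 and 1834 in pDC replicates 1 and 2, and 263 in the input. A read can be counted in neighbouring windows, so a site is described here by its summit, the tested window with the highest sum over the 4 PU.1 libraries. Levels are given as CPM, counts scaled to a common library size by TMM factors. For sites the library sizes were totals over the tested windows. For gene loci they were totals over the locus sums, so CPM of sites and of loci are on different scales. Folds are log2, pDC minus cDC, with a standard error (SE) and n = 2 libraries per cell type. A site was called when its windows, combined by the Simes method, had an edgeR quasi-likelihood adjusted p (Benjamini-Hochberg over 60073 tested sites) below 0.05. With 2 libraries against 2, no exact permutation test of a single value can give a p below 0.33. PU.1 signal is not expression, so the cell types could be checked only by signal near their marker genes. Among 7 pDC marker loci with tested windows (Ly6d had none), 3 were higher in pDCs, and among 9 cDC marker loci 5 were higher in cDCs. None was called the other way. Of 5 neutrophil and macrophage loci with tested windows (Mpo and Elane had none) 3 were higher in pDCs, and 1 of 4 B cell loci. The T cell locus Cd3e was not called, and the NK cell gene Ncr1 had no tested window. Over all loci 9.36% were called higher in pDCs and 7.95% in cDCs.

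PU.1 signal in the cluster was strongest at 4 places that lay close to the starts of gene spans. The site with the most signal lay 1983 bp below the start of the Clec4n span (chr6:123227551-123227860). Clec4n encodes Dectin-2, a receptor for fungal mannans. Its summit level was 10.4 and 14.0 CPM in cDC replicates 1 and 2 and 11.9 and 15.8 CPM in pDC replicates 1 and 2, so the cell types overlapped. The fold was 0.17 ± 0.24, with an edgeR adjusted p of 1.00, and 96.5% of all tested sites had an equal or lower mean CPM. The next lay inside the Clec4a2 span (chr6:123123101-123123610), with its summit 615 bp past the annotated start. It measured 11.2 and 7.08 CPM in cDCs and 10.3 and 9.33 CPM in pDCs. It was the widest of the cluster, 510 bp, and the cell types overlapped again (0.11 ± 0.26, edgeR adjusted p = 0.620). The site just before Clec4a1 (chr6:122921451-122921810) had its summit 243 bp before the start site. It measured 7.13 and 5.87 CPM in cDCs and 11.7 and 7.08 CPM in pDCs, a fold of 0.55 ± 0.27 that was not called (edgeR adjusted p = 0.347). Only pDC replicate 1 stood apart there, and without pDC replicate 2 the fold was 0.85 and called (edgeR adjusted p = 0.0119). The fourth was the stronger upstream site of Clec4b2, described below.

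**Figure D1:**
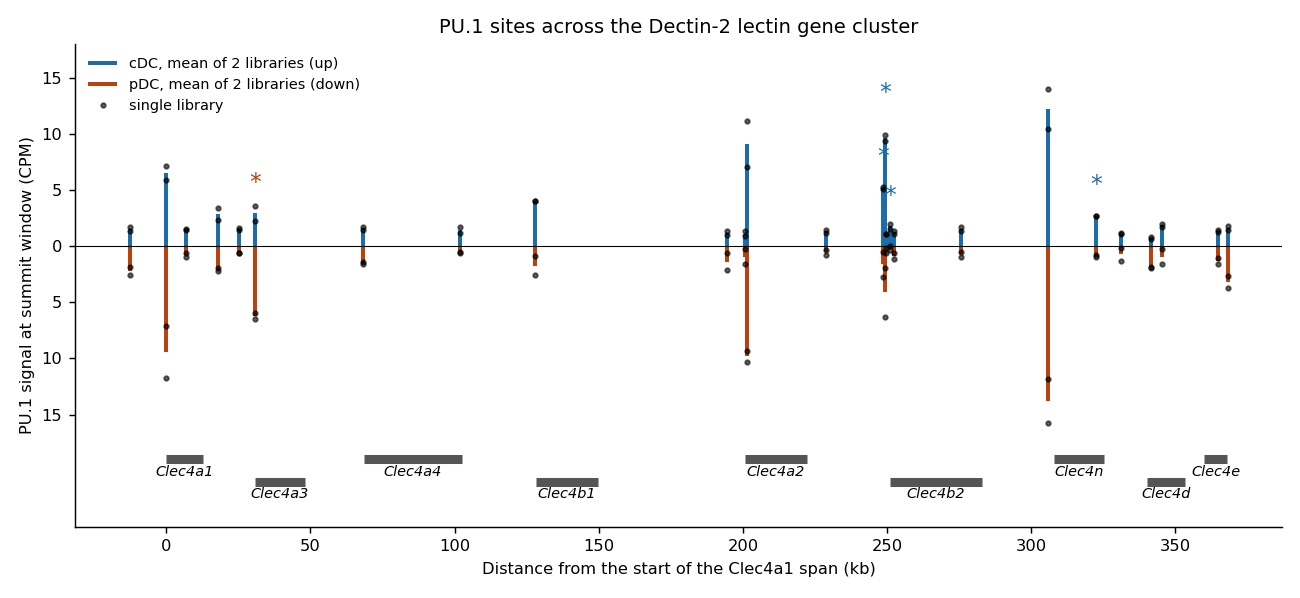
PU.1 signal at the summit of each of the 26 sites (CPM, vertical) against distance from the start of the Clec4a1 span (kb, horizontal), as means of 2 cDC libraries upward and 2 pDC libraries downward, with points for single libraries and grey bars for gene spans. Asterisks mark sites called higher in cDCs (blue) or pDCs (red), and 3 of the 4 blue ones stand side by side at Clec4b2.

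Single sites differed in both directions. Of the 26 sites, all of which passed the filter on low counts, 4 were called higher in cDCs, 1 was called higher in pDCs and 21 were not called. Over all tested sites 6.06% were called higher in cDCs and 8.52% higher in pDCs, 14.6% in either direction. The median fold of the 26 sites was -0.62, against 0.02 over all sites. Both cDC libraries exceeded both pDC libraries at 13 of the 26 summits, and both pDC libraries exceeded both cDC libraries at 4, where all sites gave 28.9% and 28.6%. Of those 13 sites, 9 were among the 16 with the least signal. No listed window had fewer than 33 counts over the 5 libraries, and the cDC libraries had the larger totals. The part of this in the excess was not tested. Among the 10 strongest sites 4 were higher in both cDC libraries, 3 in both pDC libraries and 3 overlapped. By the DESeq2 Wald test 0 of the 26 sites were called, with 5 at an unadjusted p below 0.05 (8 by edgeR), while 1895 of all sites were called. Scaling by library size alone moved the median fold of all sites to -0.11 and that of the 26 to -0.75. Scaling by signal in repeat windows moved them to -0.53 and -1.26. Without pDC replicate 1 the median of the 26 was -0.18, with -0.02 over all sites. Without pDC replicate 2 these medians were -0.88 and 0.01. With a mean of at least 30 counts, which left 6 of the 26 sites, the median of those 6 was 0.12.

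**Figure D2:**
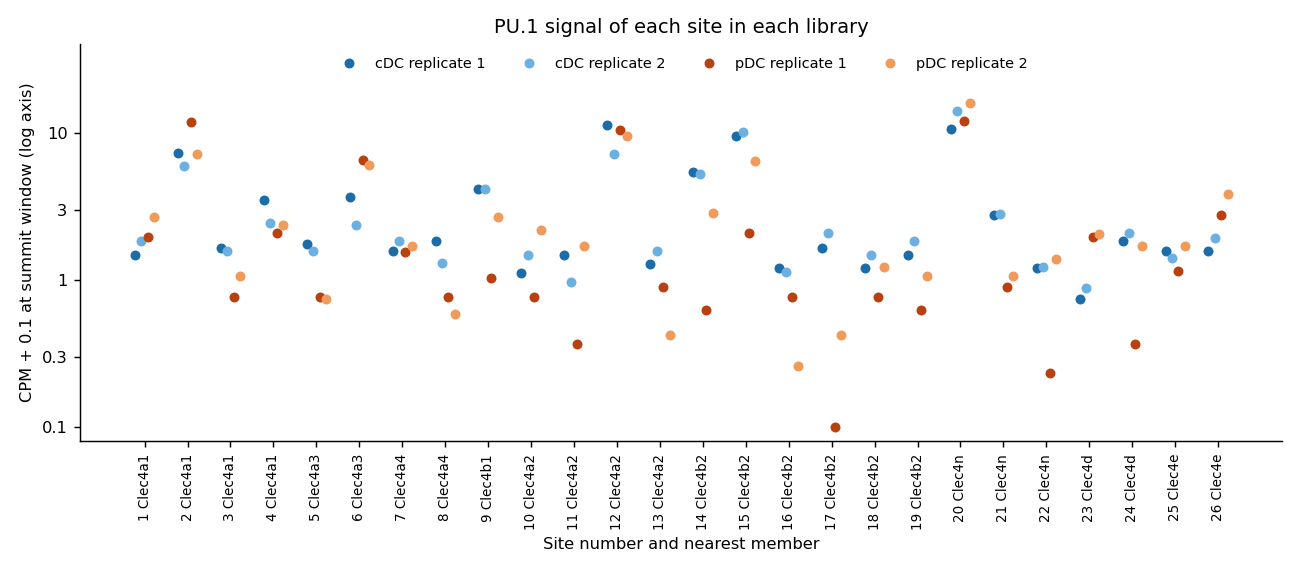
Summit CPM plus 0.1 (log axis) of the 26 sites in each of the 4 PU.1 libraries, in chromosome order with the nearest member named. At site 20 (Clec4n) the libraries lie between 10.4 and 15.8 CPM, whereas at sites 14 and 15 (Clec4b2) both pDC libraries lie below both cDC libraries, with pDC replicate 2 between.

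Clec4b2, a relative of Clec4b1 listed in RefSeq under the synonym mDCAR1, carried the clearest difference, with signal higher in cDCs at 3 of its 6 sites. A site 2308 bp below its span (chr6:123170251-123170560) measured 5.30 and 5.10 CPM in cDCs, from 58 and 59 counts. In pDC replicates 1 and 2 it measured 0.527 and 2.73 CPM, from 4 and 17 counts, and the input had 2. The fold was -1.74 ± 0.43 (edgeR adjusted p = 0.00184), which is 3.34-fold higher in cDCs. A stronger site 1508 bp below the span (chr6:123171051-123171360) measured 9.33 and 9.93 CPM in cDCs and, in pDC replicates 1 and 2, 1.98 and 6.27 CPM. This was a fold of -1.27 ± 0.33 (edgeR adjusted p = 0.0223). Both pDC libraries lay below both cDC libraries at each site, and they also lay far from each other. At its site over the start of the span (chr6:123172851-123172960), the summit lay 118 bp before the annotated start site, which is outside the site. There were 17 and 23 counts in cDCs against 0 and 2 in pDCs. The ratio of cDC to pDC levels from the pooled counts was 12.3, with an exact binomial 95% interval of 3.18 to 105 that covers counting error only, and the edgeR adjusted p was 0.00534. With 3 counts in the smaller input library, that site was not called above input in either cell type. All 6 sites of Clec4b2 had negative folds, and the other 3 were not called.

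The sizes at Clec4b2 depended on which pDC replicate was kept. Without pDC replicate 2 the folds of the sites at 2308 and 1508 bp were -3.27 and -2.28, both called. Without pDC replicate 1 the fold of the site at 2308 bp was -0.92 and kept its call (edgeR adjusted p = 0.0155). The fold of the site at 1508 bp was -0.62 and lost it (edgeR adjusted p = 0.307). The latter call also ended without cDC replicate 1 and without cDC replicate 2. The call of the site over the span start ended without cDC replicate 2. For the site over the span start, the fitted fold is no bound at such counts. It was -3.49 with all libraries, -2.42 without pDC replicate 1 and -7.17 without pDC replicate 2. Of all 26 sites, 19 had a higher CPM in pDC replicate 2 than in pDC replicate 1. They were 9 of the 13 sites with both cDC libraries higher, 3 of the 4 with both pDC libraries higher and 7 of the 9 that overlapped. The share over all tested sites is not given here, so the count does not set the cluster apart. Summed over the 9 cDC marker loci, PU.1 signal was 1454 and 1419 CPM in the cDC libraries, 949 CPM in pDC replicate 1 and 1128 CPM in pDC replicate 2. Over the 7 pDC marker loci it was 591 and 578 CPM in cDCs and 953 and 813 CPM in pDC replicates 1 and 2. In both sums pDC replicate 2 thus lay nearer to the cDCs. The largest fall within the pDC sum was at Siglech, with 549 and 396 CPM in pDC replicates 1 and 2. Ccr9, Spib and Cox6a2 were also lower in pDC replicate 2. Tcf4 (231 and 254 CPM), Dntt (110 and 116 CPM) and Bst2 (5.99 and 7.92 CPM) were higher in it, so the list did not move as a whole. The part of either sum in the values at Clec4b2 was not tested.

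Clec4b1 showed values of the same kind at its only site, which covers the start site (chr6:123049801-123050060). Clec4b1 encodes DCAR, an activating receptor that pairs with Fcer1g. The summit measured 4.02 and 4.06 CPM in cDCs, and 0.923 and 2.57 CPM in pDC replicates 1 and 2. Both cDC libraries lay above both pDC libraries. The fold was -1.25 ± 0.41 and was not called (edgeR adjusted p = 0.0572). It was called with scaling by library size (-1.38, edgeR adjusted p = 0.0312), with no filter (-1.26, 0.0475), with the summit window alone (-1.27, 0.0430) and without pDC replicate 2 (-2.12, 0.000384), and was -0.65 without pDC replicate 1.

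Among the Clec4a genes, Clec4a3 (DCIR3) carried more signal in pDCs at its start. Its main site lay over both annotated starts (chr6:122952451-122952710) and measured 3.57 and 2.25 CPM in cDCs and 6.46 and 5.95 CPM in pDCs. Both pDC libraries lay above both cDC libraries, and the fold was 1.10 ± 0.32 (edgeR adjusted p = 0.0306), which is 2.14-fold higher in pDCs. That call ended by DESeq2 (adjusted p = 0.375), without cDC replicate 1 (edgeR adjusted p = 0.185), without cDC replicate 2 (0.150) and with scaling by library size (0.0535). It also ended in the fit of counts summed per site (0.85, edgeR adjusted p = 0.0691) and with scaling by repeat windows, where the fold was 0.59 (edgeR adjusted p = 0.824). The highest fold, 1.46, was that without cDC replicate 1. Across this site the difference in CPM was greatest at the summit, while the ratio of pDC to cDC was greatest at the edge inside the gene, which was not tested. At the window at 122952701 the libraries measured 0.640 and 1.12 CPM in cDCs and 2.64 and 3.06 CPM in pDCs, whereas at 122952451 all 4 lay between 1.13 and 1.46 CPM. The related Clec4a1 (DCIR4) site, whose promoter shares the aligned stretch above, had the positive but uncalled fold already given.

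The other sites of the Clec4a genes had less signal and were not called. The second of Clec4a1, 5032 bp above the span (chr6:122939651-122939910), measured 3.38 and 2.33 CPM in cDCs and 1.98 and 2.25 CPM in pDCs. Its mean of 2.49 CPM stood above the median of all sites, 2.08 CPM, and both cDC libraries lay above both pDC libraries (-0.43 ± 0.39, edgeR adjusted p = 0.654). The site 12538 bp below Clec4a1 (chr6:122909151-122909310) measured 1.37 and 1.73 CPM in cDCs and 1.85 and 2.57 CPM in pDCs, with both pDC libraries higher (0.49 ± 0.44, edgeR adjusted p = 0.572). The second site of Clec4a3, 5505 bp below it (chr6:122946901-122947010), had 18 and 17 counts in cDCs, 5 and 4 in pDCs and 6 in the input (-1.24 ± 0.55, edgeR adjusted p = 0.210). The second of Clec4a2, 6180 bp below it (chr6:123116401-123116510), overlapped between cell types, with 11 and 16 counts in cDCs and 5 and 13 in pDCs (0.14 ± 0.54, edgeR adjusted p = 0.978). Clec4a4 encodes DCIR2, an inhibitory receptor of a cDC subset, and had 2 sites. Before its start (chr6:122990001-122990160) the summit measured 1.46 and 1.73 CPM in cDCs and 1.45 and 1.61 CPM in pDCs, with a fold of -0.07 ± 0.47. At the far end of its span (chr6:123023851-123023910) the summit measured 1.74 and 1.21 CPM in cDCs, and 0.659 and 0.483 CPM in pDCs. The fold was -1.32 ± 0.58 and was not called (edgeR adjusted p = 0.133). Its summit held 3 to 19 counts per library, and both cDC libraries lay above both pDC libraries.

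**Figure D3:**
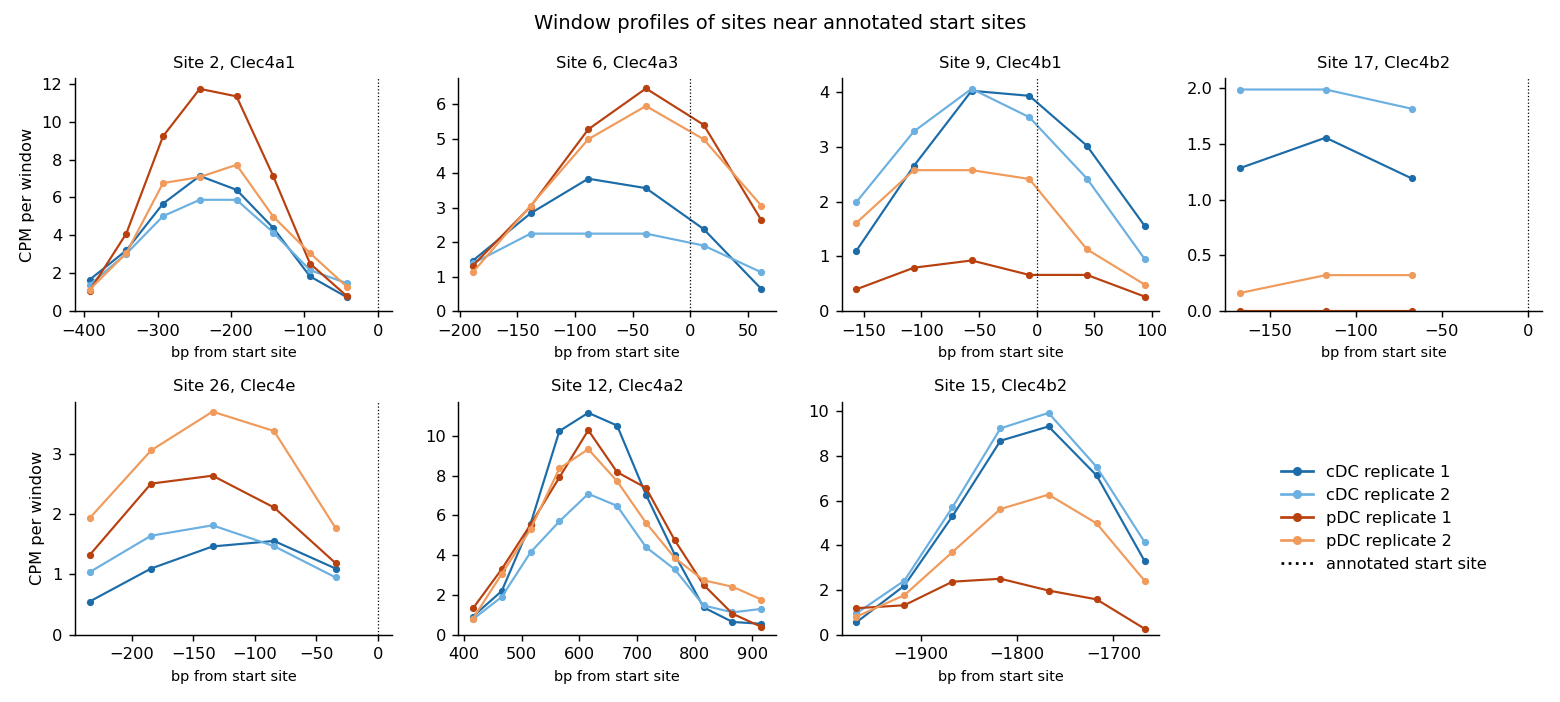
CPM per 10 bp window in each PU.1 library (vertical) against distance from the annotated start site in the direction of transcription (bp, horizontal) for 7 sites at Clec4a1, Clec4a3, Clec4b1, Clec4b2, Clec4e and Clec4a2. Signal peaks 243 bp before the start of Clec4a1 and 615 bp past that of Clec4a2, and at Clec4b1 and at both Clec4b2 sites both cDC libraries lie above both pDC libraries at the summit.

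At Clec4n a weak internal site was called higher in cDCs, whereas the strong upstream site was not called. The difference between the sites was not tested. The internal site (chr6:123244301-123244460) measured 2.65 and 2.68 CPM in cDCs, but 0.791 and 0.965 CPM in pDCs. The libraries of each cell type lay close together and the groups did not overlap. With 2 counts in the smaller input library, the site was not called above input in either cell type. The fold was -1.60 ± 0.48 (edgeR adjusted p = 0.0295), but the call ended without cDC replicate 1 (0.115) and without cDC replicate 2 (0.172). The remaining site, 5977 bp above the span, had 12 and 13 counts in cDCs and 1 and 8 in pDCs and was not called.

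Clec4d and Clec4e, which encode the MCL and Mincle receptors for mycobacterial glycolipids, had weak signal. At Clec4e, the site before the start (chr6:123289901-123290110) measured 1.46 and 1.81 CPM in cDCs and 2.64 and 3.70 CPM in pDCs. Both pDC libraries were above both cDC libraries, with a fold of 0.93 ± 0.40 that was not called (edgeR adjusted p = 0.227). Its other site, within the span, overlapped between cell types (-0.07 ± 0.50). At Clec4d, a site near the start of the span (chr6:123263301-123263360) had 7 and 9 counts in cDCs and 14 and 12 in pDCs (fold 1.39 ± 0.51, edgeR adjusted p = 0.103). Further inside (chr6:123267001-123267160) Clec4d had 19 and 23 counts in cDCs and 2 and 10 in pDCs (-1.07 ± 0.57, edgeR adjusted p = 0.244). Without pDC replicate 2 the latter was called at -2.77 (edgeR adjusted p = 0.0149).

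**Figure D4:**
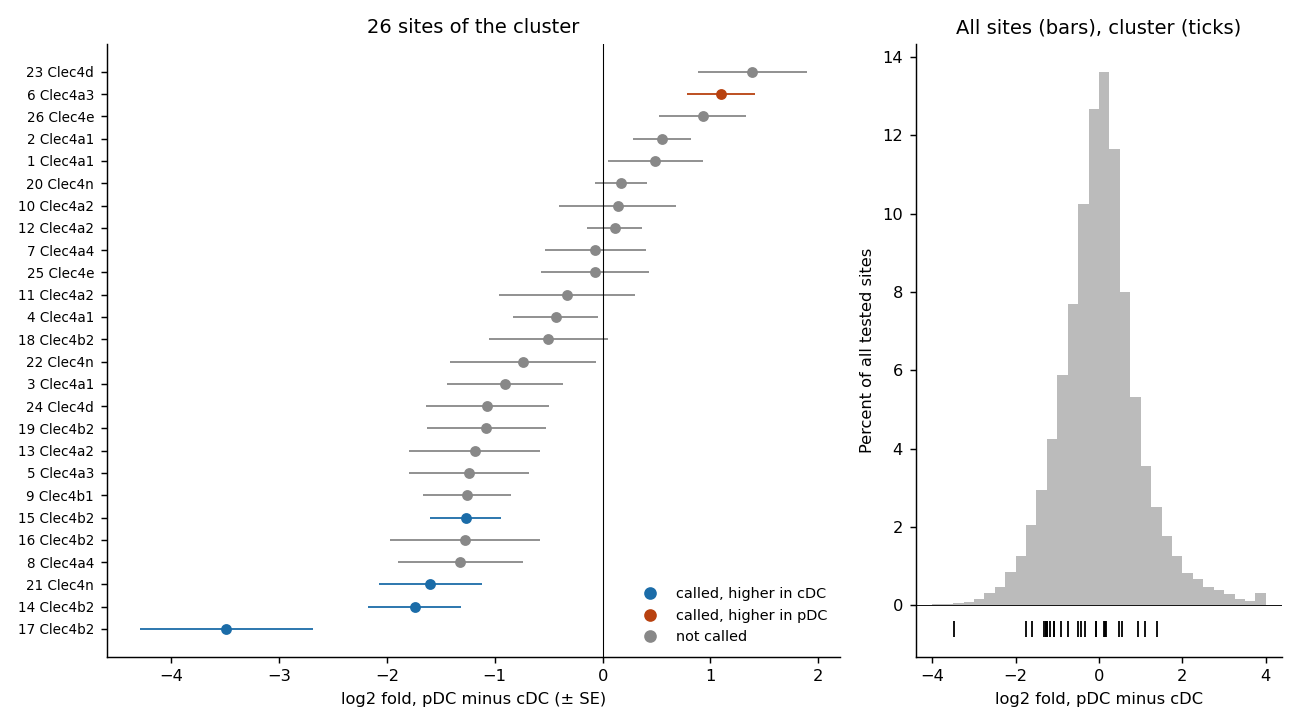
Left, log2 fold (pDC minus cDC) of the summit window with its SE for the 26 sites, sorted by fold and coloured by call. Right, the distribution of the fold over all 60073 tested sites in percent, with folds past 4 in either direction in the end bars, and ticks for the 26 sites, of which 11 lie below -1 and 2 above 1.

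Ratios within a library do not depend on scaling. Relative to the strong Clec4n site of the same library, the summit of the Clec4b2 site at 1508 bp had 0.895 and 0.710 times the counts in cDC replicates 1 and 2. In pDC replicates 1 and 2 it had 0.167 and 0.398 times the counts. The Clec4b2 site at 2308 bp had 0.509 and 0.364 times in cDCs against 0.0444 and 0.173 in pDCs, and the Clec4b1 site 0.386 and 0.290 against 0.0778 and 0.163. None of these 3 sets of ratios overlapped between cell types. The same 3 sites were already separate in CPM, so the ratios repeat that order without scaling and are no independent support. The share of all sites with separate ratios is not given here. For Clec4a3 the order was the opposite, with 0.342 and 0.160 in cDCs against 0.544 and 0.378 in pDCs. The Clec4a2 site overlapped, with 1.07 and 0.506 against 0.867 and 0.592.

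Summed by gene, each window going to its nearest protein-coding gene within 20 kb, 1 of the 9 members was called. Over all 13501 loci with signal 7.95% were called higher in cDCs and 9.36% in pDCs, 17.3% in all. Clec4b2 measured 99.5 and 107 CPM in cDCs and 21.8 and 57.7 CPM in pDCs. Its fold was -1.39 ± 0.32 (edgeR adjusted p = 0.0126). It was -0.84 without pDC replicate 1 and -2.26 without pDC replicate 2, and the call held in all 4 fits that left out a library. By DESeq2 it was not called (adjusted p = 0.146). Clec4b1 had 21.3 and 22.2 CPM against 4.72 and 14.9 CPM (-1.17 ± 0.44, edgeR adjusted p = 0.0882). Its fold was -2.21 without pDC replicate 2, where it was called (edgeR adjusted p = 8.1e-07), and -0.54 without pDC replicate 1. Clec4a3 (0.54 ± 0.25), Clec4e (0.56 ± 0.32) and Clec4a1 (0.22 ± 0.17) had positive folds, which turned negative for the last 2 with scaling by repeat windows, and were not called, with edgeR adjusted p of 0.178, 0.260 and 0.435. Clec4a2 (0.08 ± 0.19), Clec4n (-0.13 ± 0.20), Clec4d (-0.30 ± 0.40) and Clec4a4 (-0.47 ± 0.35) were not called either. On the site scale, the cluster as a whole measured 293 and 294 CPM in cDCs and 236 and 287 CPM in pDCs. The log2 ratio of the means was -0.17, with no test. The locus CPM above are on the locus scale and do not add up to these values.

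As shares of the cluster counts in a library, Clec4b2 held 23.5% and 25.1% in cDC replicates 1 and 2, but 6.71% and 13.9% in pDC replicates 1 and 2. Clec4b1 and Clec4b2 together held 28.5% and 30.3% in cDCs and 8.16% and 17.5% in pDCs. The shares of Clec4a1 were 17.2% and 16.1% in cDCs against 26.4% and 18.9% in pDCs. Clec4a3 held 6.46% and 5.18% against 11.0% and 8.62%, and Clec4e 3.24% and 3.59% against 5.37% and 6.16%. The libraries of the 2 cell types did not overlap for these 3 genes, which held larger shares in pDCs. Nor did they for Clec4a4, whose shares were larger in cDCs (2.96% and 2.74% against 2.57% and 2.18%). Clec4a2, Clec4n and Clec4d overlapped. How often the shares of other loci overlap is not given here. At the summits of all sites, both cDC libraries were higher in 28.9% and both pDC libraries in 28.6%. Clec4a2 and Clec4n each held between 15.3% and 24.0% in every library. A share falls where another rises, so the shares are not independent of one another. At the site of each gene with the highest mean over the 4 libraries, in windows of equal length, the order of mean CPM in cDCs was Clec4n (12.2), Clec4b2 (9.63), Clec4a2 (9.12), Clec4a1 (6.50), Clec4b1 (4.04), Clec4a3 (2.91), Clec4d (1.86), Clec4e (1.64) and Clec4a4 (1.60). The cDC libraries of Clec4a2 overlapped with those of Clec4n, Clec4b2 and Clec4a1, and those of Clec4e with Clec4d and Clec4a4. In pDCs the order was Clec4n (13.8), Clec4a2 (9.81), Clec4a1 (9.41), Clec4a3 (6.21), Clec4b2 (4.13), Clec4e (3.17), Clec4b1 (1.75), Clec4a4 (1.53) and Clec4d (0.936). The other Clec4d site was the stronger of its pair in pDCs, with a mean of 1.89 CPM. The pDC libraries of Clec4a1 overlapped with those of Clec4a2, those of Clec4b2 with Clec4a3, Clec4e and Clec4b1, and those of Clec4b1, Clec4a4 and Clec4d with one another.

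**Figure D5:**
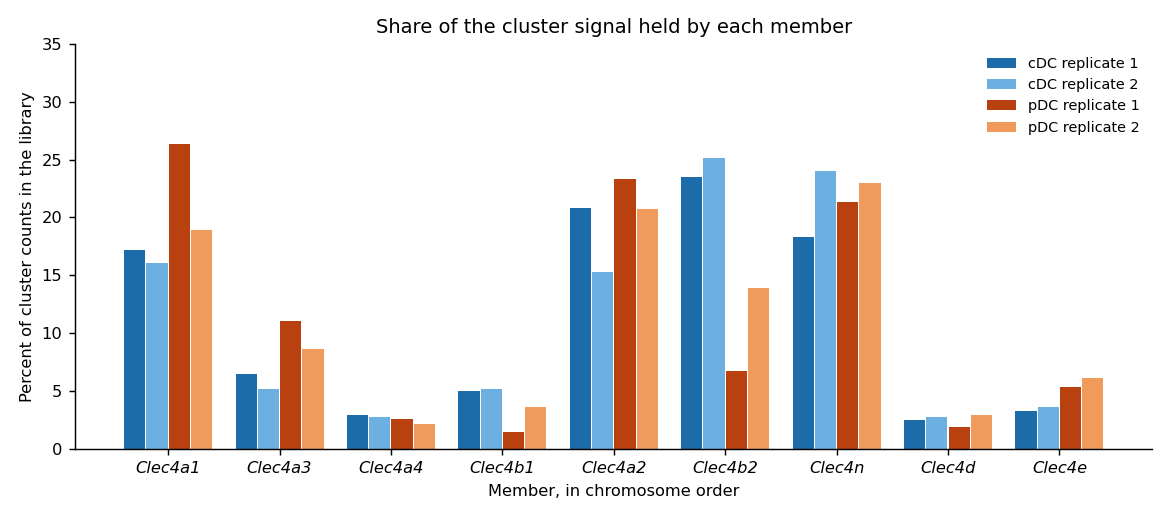
Percent of the cluster counts of each PU.1 library (vertical, from 0) held by each member in chromosome order. The bars of Clec4b2 stand at 23.5% and 25.1% in cDCs and at 6.71% and 13.9% in pDCs, and those of Clec4a3 at 6.46% and 5.18% in cDCs and 11.0% and 8.62% in pDCs.

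Some sites stood above the input, and these calls rested on the library size used. At the summits the input had 0 to 6 counts, with a median of 2. Of the 26 sites 7 were called above input in cDCs and 4 in pDCs, with a fold of at least 2 and an edgeR adjusted p below 0.05, against 31.6% and 28.6% of all tested sites. The 4 in pDCs were the main sites of Clec4a1, Clec4a2, Clec4a3 and Clec4n. Those in cDCs were the main sites of Clec4a1, Clec4a2 and Clec4n, the Clec4b1 site, both upstream sites of Clec4b2 and a site 5032 bp above Clec4a1. The input held 74.6% of its counts in 146 repeat windows, and with these left out of the library sizes 0 of the 26 sites were called in either cell type by edgeR, and 2 in each passed that fold at an unadjusted p below 0.05.

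In level and pattern, the loci most like that of Clec4n, the member locus with the highest mean CPM, were those of Haus6, Acot11 and Slc25a43. Their log2 CPM lay within a Euclidean distance of 0.171, 0.174 and 0.180 of it over the 4 libraries.

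Genes that act downstream of these receptors differed in both directions. Of 34 loci in a list of adaptors, kinases, phosphatases, CARD9-pathway genes and cytokines, 4 carried more signal in pDCs, 5 more in cDCs, and 25 were not called, beside 9.36% and 7.95% of all loci. The median fold of the list was 0.01, as over all loci. Fcer1g, the adaptor itself (0.20 ± 0.28), Syk (0.08 ± 0.10) and Card9 (-0.04 ± 0.23) were not called, with edgeR adjusted p of 0.689, 0.656 and 0.942. Among 10 adaptors and kinases, Pik3cd (0.49 ± 0.12), Plcg2 (0.36 ± 0.11) and Vav2 (0.32 ± 0.10) were higher in pDCs and Vav3, a guanine nucleotide exchange factor, was higher in cDCs (-0.55 ± 0.11). Of 3 phosphatases that act on inhibitory receptors, Ptpn6 was higher in pDCs (0.64 ± 0.14, edgeR adjusted p = 0.00900) and Ptpn11 in cDCs (-0.65 ± 0.15, edgeR adjusted p = 0.0114). Of 13 CARD9-pathway genes only Chuk, an IkappaB kinase subunit, was called, higher in cDCs (-1.16 ± 0.19, edgeR adjusted p = 0.00261). Of 8 cytokine and chemokine genes Il1b (-0.70 ± 0.16) and Il12b (-0.69 ± 0.17), the latter named after its values were seen, were higher in cDCs. Without cDC replicate 1 the calls of Plcg2, Vav2, Pik3cd, Ptpn6, Ptpn11, Il1b and Il12b ended, and without cDC replicate 2 those of Plcg2, Vav2, Pik3cd, Ptpn11 and Il12b. The calls of Plcg2, Vav2 and Pik3cd also ended with scaling by library size, and those of Plcg2 (adjusted p = 0.0545) and Vav2 (0.0649) by DESeq2. With scaling by repeat windows all 9 calls ended, and Plcg2 and Vav2 turned negative.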

How the data were processed

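PU.1 ChIP-seq libraries, 2 of cDCs and 2 of pDCs, and 1 cDC input were used, grouped by their titles. The authors deposited raw read counts per window of 10 bp on a 50 bp grid, 329996 windows with at least 33 counts over the 5 libraries. Per the submitters' processing notes, Subread 1.4.4 and mm10 were used. The sources used here do not state the role of each, read extension, the treatment of reads with several matches or the choice of windows. Members and gene lists were chosen with earlier results of these data known.

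Windows were filtered with filterByExpr (minimum count 10), which kept 286435, and fitted with edgeR 4.0.16 (R 4.3.3, limma 3.58.1) by the quasi-likelihood test with TMM factors and cell type as the only term. The biological coefficient of variation was 0.159. Simes p-values per site and locus tests were adjusted over the whole table at 0.05. The SE is that implied by the F statistic. A called site takes the direction of its window with the smallest p, and its fold is that of the summit. The input fit used all 5 libraries with totals over windows as library sizes, which lets the lone input share the spread of the others. Windows inside several gene spans went to the symbol first in the alphabet. Named were all members, each called site, the 2 strongest sites of each member, the 10 strongest of the cluster, up to 4 called loci of the downstream list in each direction, and the 3 loci most like the strongest member. DESeq2 1.42.0, other scalings, filters, merging distances and flanks, a replicate block and each library left out were alternatives. Promoters were aligned with Biopython 1.88. Scripts were tested on simulated data. The series text calls the replicates biological, and no label names their culture or animal.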

Additional observations from a re-analysis of the deposited data

How the results depend on the processing

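The edgeR count of 5 called sites among the 26 was 0 by DESeq2 and 3 with a mean of at least 30 counts, where 6 sites were tested. It was 1 to 8 without single libraries (2 and 1 without the cDC replicates 1 and 2, and 4 and 8 without the pDC replicates 1 and 2). It was 4 to 6 in every other setting, among them the summit window alone (6), chosen after seeing the data. Over all sites 8760 calls (5119 higher in pDCs, 3641 in cDCs) became 4888 with scaling by repeat windows (1029 and 3859), 1895 by DESeq2, 4199 with a mean of at least 30 counts and 3025 to 15641 without single libraries. With scaling by library size there were 9277 (4217 and 5060). The single called member locus became 0 by repeat windows and by DESeq2 (2 in each at an unadjusted p below 0.05), 2 with a mean of at least 30 counts, and 1 to 2 without single libraries. No label says whether the replicate numbers pair the samples. The differences between replicates correlated over windows with a Pearson r of 0.02 between cell types. That value cannot show whether replicates of equal number shared a culture or animal. A replicate block gave 2 called member loci, 6 called sites of the 26 and 9672 of all, and the added calls were the Clec4b1 locus (-1.31, edgeR adjusted p = 0.0163) and its site (-1.27, 0.0274). Calls over all loci, 2337 (1264 higher in pDCs, 1073 in cDCs), became 149 by repeat windows and 873 to 4806 without single libraries, and with library sizes were split 869 to 1360. Those of the downstream list, 9, became 0 by repeat windows (2 at an unadjusted p below 0.05) and 2 to 17 without single libraries. Calls above input were 0 and 0 without repeat windows in the library sizes, and 6 to 8 in cDCs and 4 to 7 in pDCs without single libraries. With repeat windows the log2 ratio of the cluster sum was -0.73. The same scaling reversed the uncalled folds of site 1 (-0.11), site 10 (-0.53), site 12 (-0.38) and site 20 (-0.43), numbered along the chromosome, those of the Clec4a1 (-0.24), Clec4a2 (-0.41) and Clec4e (-0.0086) loci, and those of Plcg2 (-0.0797) and Vav2 (-0.16). Library sizes reversed site 12 (-0.0142) and the Clec4a2 locus (-0.0129), and a mean of at least 30 counts the Clec4n locus (0.0770). Without single libraries the sign changed for site 7 (-0.19 to 0.0586), site 10 (-0.85 to 0.80), site 11 (-2.03 to 0.53), site 12 (-0.18 to 0.46), site 20 (-0.0464 to 0.40), site 22 (-2.96 to 0.21), site 25 (-0.38 to 0.22), the Clec4a2 locus (-0.12 to 0.31), the Clec4d locus (-0.89 to 0.13), the Clec4n locus (-0.39 to 0.0836). The cause of these changes was not tested. The median level of the 26 sites was 1.38 CPM, against 2.08 CPM over all sites, and its part in the number of calls was not tested.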

Other observations

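Between Clec4b1 and Clec4a2 lie 3 PU.1 sites more than 20 kb from either gene, outside the 26 described. The site 23.9 kb below Clec4a2 (chr6:123098651-123098760) had 24 and 19 counts at its summit in cDC replicates 1 and 2, 0 and 7 in pDC replicates 1 and 2, and 2 in the input, with a log2 fold of -1.87 that was not called (edgeR adjusted p = 0.0844). The site 23.7 kb above Clec4b1 (chr6:123095251-123095310) had 6 and 11 counts in cDCs and 9 and 8 in pDCs (0.70, edgeR adjusted p = 0.484). The site 24.0 kb above Clec4b1 (chr6:123095551-123095660) had 16 and 14 counts in cDCs and 7 and 10 in pDCs (-0.11, edgeR adjusted p = 0.679).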
